A study of Mus musculus with 12 samples.

Results

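The chemokines and chemokine receptors of the mouse kidney are described here from mRNA sequencing of 12 kidneys. The group holds the protein-coding genes named Ccl, Cxcl, Ccr, Cxcr, Xcl or Xcr with a number, together with Cx3cl1, Cx3cr1 and the atypical receptors Ackr1 to Ackr4. It came to 62 of the 21848 protein-coding genes, in a table of 57490 genes, with 39 ligands, 19 receptors and 4 atypical receptors. Of these 62 genes, 34 had enough reads to be tested.

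The study asked which kidney transcripts differ in diabetic nephropathy and which of them a decoction changes. The 4 Ctrl mice were db/m, heterozygous for the Lepr db mutation, and the 4 Model mice were homozygous db/db (BKS.Cg-Dock7m +/+ Leprdb/JNju), and both groups were gavaged with purified water. The 4 YHY mice were db/db and were gavaged once a day for 4 weeks with a water extract of Yiqi Huoxue Yangyin Decoction at 6.24 g/mL, and the labels do not give the dose per mouse. The paper used low, medium and high doses of YHY and does not say which was sequenced. All 12 mice were males of 13 weeks, 1 library came from each mouse, and the labels name the tissue as kidney and, elsewhere, as renal cortex. A db/db mouse lacks signalling by the long leptin receptor in every tissue from birth, so obesity and hyperglycaemia come together in Model and YHY mice, while Ctrl mice carry 1 copy of the mutation.

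Chemokines are small secreted proteins that steer leukocytes by binding G protein-coupled receptors. CC ligands such as Ccl2 and Ccl3 mainly draw monocytes, macrophages and T cells, CXC ligands such as Cxcl1 and Cxcl2 draw neutrophils, and the atypical receptors bind chemokines without G protein signalling and often remove them. In the kidney, tubule cells, endothelium, mesangial cells and resident macrophages can all secrete chemokines, and Ccl2 is widely studied in diabetic kidney disease.

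Each library held 24415658 to 33276634 counts, and levels are given as CPM, counts scaled to 1000000 per library, on library sizes corrected by the trimmed mean of M values (TMM). The libraries were not alike before scaling. Transcripts of the mitochondrial genome took 18.4% to 22.7% of the counts in Ctrl mice, 41.2% in Model 1, 53.4% to 58.9% in the other Model mice and 53.8% to 64.6% in YHY mice. Scaling by library size alone moved the median log2 fold change of all genes in Model against Ctrl from 0.04 to -0.39, and it reversed no fold change of a gene named here that passed the test. Tubule markers fitted the labelled tissue, with a summed level of 47527 ± 16432 CPM (mean ± SD, n = 4) for 9 proximal tubule genes in Ctrl mice and 8962 ± 1813 CPM in Model mice, of which the androgen-responsive Kap made up 42476 and 5094 CPM. The other 8 summed to 5051 ± 620.2 CPM in Ctrl mice and 3868 ± 343 CPM in Model mice. The 5 adipocyte markers, led by Lep, summed to at most 1.33 CPM in a mouse and the 3 adrenal cortex markers, led by Star, to at most 6.05 CPM.

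To set different genes beside each other, levels were divided by the gene length given with the counts, 8176 bases for Cxcl12 and 766 for Ccl3. This length need not be that of the transcripts present, so the order between genes is approximate. Per kilobase of this length, the homeostatic ligand Cxcl12 stood first with a mean of 16.5 CPM per kb over the 12 mice. It was followed by Ccl3 at 15.8, Cx3cl1 at 12.6, Ccl4 at 11.9, Ccl21a at 8.86, Cxcl2 at 7.72, Ccl27a at 7.31, Ccl2 at 7.07, Cxcl16 at 6.57 and Cxcl14 at 5.92 CPM per kb, so the 10 highest were all ligands. The order differed between groups. In Ctrl mice Cxcl12 (18.3 CPM per kb), the membrane-bound ligand Cx3cl1 (15.8) and the scavenging receptor Ackr3 (9.97) led, whereas in Model mice Ccl3 (17.1), Cxcl12 (15.3) and Ccl4 (13.4) did. The highest level of a signalling receptor was 1.56 CPM per kb, and Cx3cr1, the receptor of Cx3cl1, stood second at 0.973 CPM per kb.

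**Figure D1:**
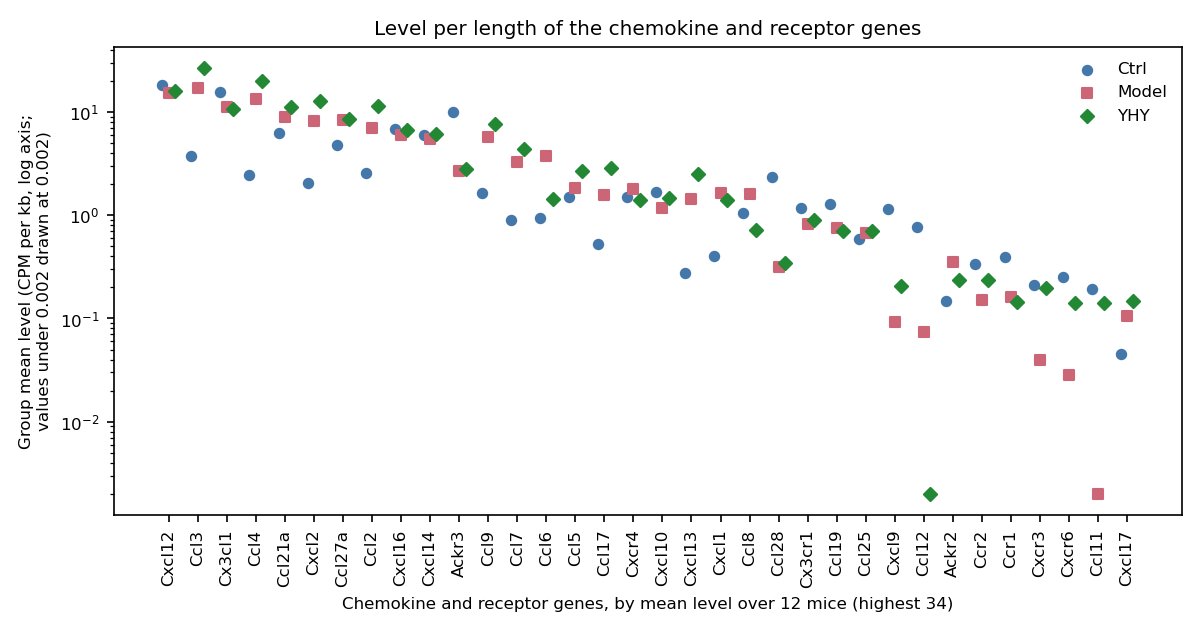
Group mean level (CPM per kb, log axis, n = 4 mice per group) of the 34 chemokine and receptor genes with the highest mean over the 12 mice, in falling order from left to right. Cxcl12 lies near the top in all groups, while Ccl3, Ccl4 and Cxcl2 lie lower in Ctrl than in Model and YHY, and most receptors lie in the right part of the plot.

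Low counts set a limit on 28 of the genes. Ccl21b, Ccl21d, Ccl26, Ccr1l1 and Cxcr1 had 0 counts in all 12 mice, which allows up to 3 counts in a library. A further 23 genes were detected but not tested, and 40 counts, those of Ccl12 in Ctrl 1, were the most that any of them reached in a mouse. A count of 0 for a gene says only that its level was under this limit. Reads of the near-identical copies Ccl21a, Ccl21b and Ccl21d, of Ccl27a and Ccl27b, and of Ccl19 and its pseudogenes may have been split or assigned to 1 copy, so the levels of Ccl21a, Ccl27a and Ccl19 are uncertain. Among counts of 4 to 10, 75.8% to 82.1% were even, against 49.4% to 51.0% of counts above 100 and up to 1000, so a low count may stand for fewer fragments than its size, and such intervals cover counting error only.

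In untreated db/db kidney some CC and CXC ligands were higher and some members, ligands and receptors, were lower. Of the 34 tested genes, 15 (44.1%) differed between Model and Ctrl by edgeR (adjusted P under 0.05), against 38.0% of all 17431 genes tested, so the share was near that of the whole transcriptome. Of these, 10 were higher in Model, against 19.6% of all genes, and 5 were lower, against 18.5% of all genes. All 10 higher genes were ligands, and the lower ones were 3 ligands, 1 receptor and 1 atypical receptor, where 24 ligands, 8 receptors and 2 atypical receptors had been tested. The median log2 fold change of the 34 genes was 0.07, beside 0.04 over all genes tested. Ctrl and Model mice did not overlap for 14 of the 34 genes and for 7013 of all 17431 genes tested, so such separation was common over the whole transcriptome. Under the limits that the study used, a fold change over 1.2 with an unadjusted P under 0.05, 17 of the 34 were called, against 46.9% of all genes.

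**Figure D2:**
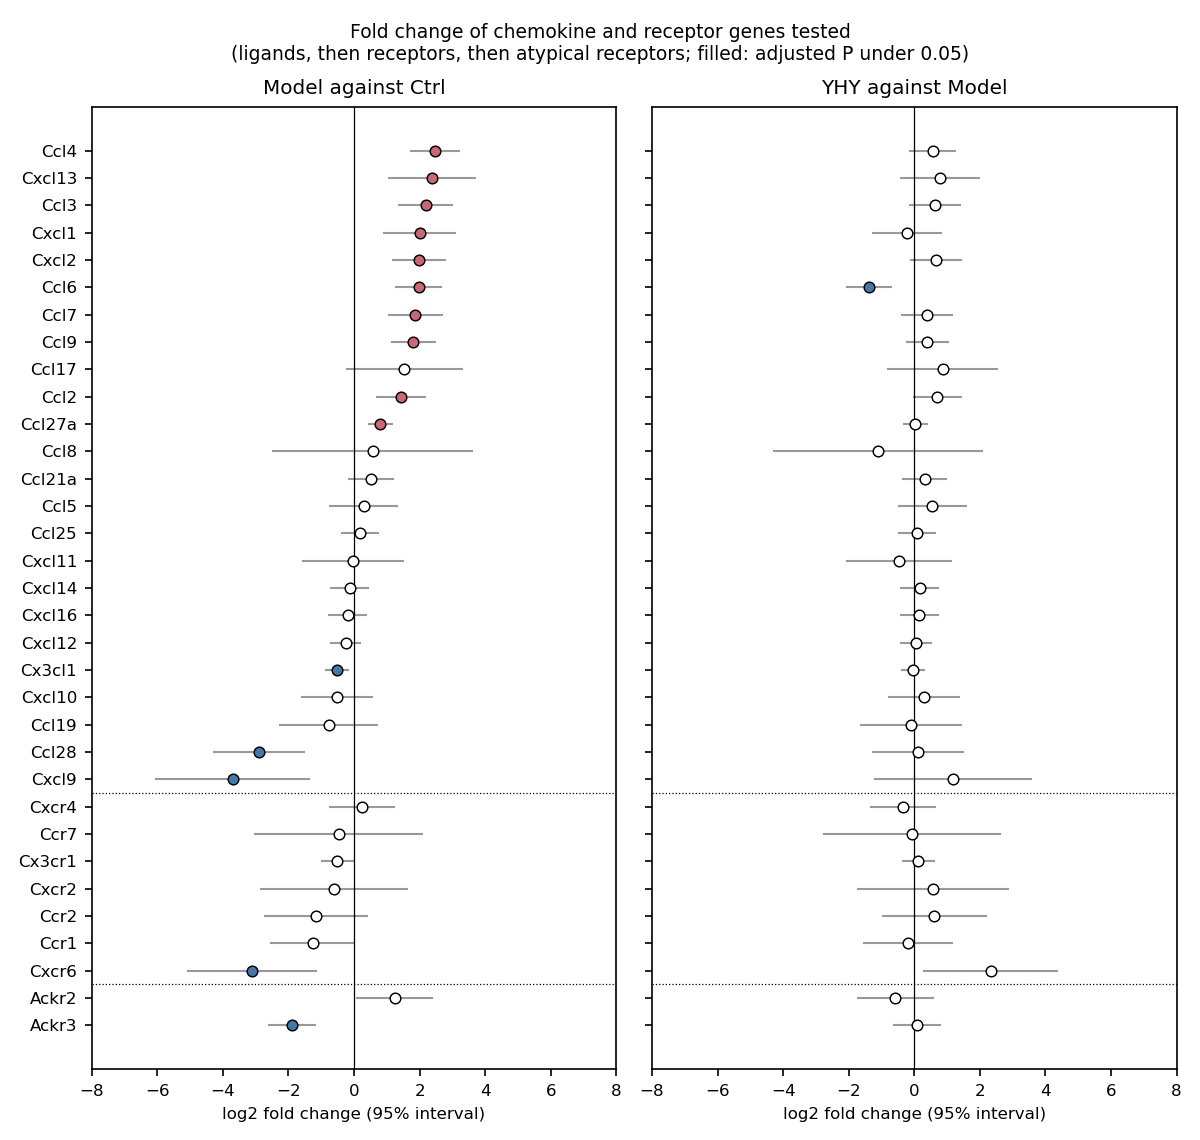
Fitted log2 fold change (horizontal axis) with its 95% interval for 33 tested genes in Model against Ctrl (left) and YHY against Model (right), 4 mice per group, with filled points where the adjusted P was under 0.05. On the left 10 filled points, all ligands, lie to the right of 0 and 5 filled points to the left, and on the right Ccl6 alone is filled. Scaling by library size alone reversed none of the filled points.

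Of the 7 CC ligands that rose, Ccl27a lies on chromosome 4 and the other 6 lie in a pair of gene clusters on chromosome 11. Ccl2 (chr11:81926397-81928279) and Ccl7 (chr11:81936538-81938351) are neighbours in the first, and Ccl9 (chr11:83463745-83469462), Ccl6 (chr11:83478708-83483913), Ccl3 (chr11:83538670-83540181) and Ccl4 (chr11:83553410-83555509) stand in this order in the second, on the GRCm39 coordinates of the count table. These clusters hold 11 members, and Ccl5 and Ccl8 were tested and not called, while Ccl1, Ccl11 and Ccl12 had too few counts to be tested. Ccl12 had 40, 0, 18 and 11 counts in Ctrl and 2, 2, 0 and 0 in Model, and Ccl11 had 4, 10, 14 and 4 in Ctrl and 0 in each Model mouse.

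Ccl4, which draws macrophages and T cells, measured 1.49, 1.93, 1.32 and 1.68 CPM in Ctrl 1 to 4, 8.88, 6.38, 9.59 and 10.6 CPM in Model 1 to 4 and 15.6, 22.6, 6.92 and 7.40 CPM in YHY 1 to 4. Every Model mouse stood above every Ctrl mouse, and the level was 5.52-fold higher in Model (log2 fold change 2.47, SE 0.34, adjusted P = 7.28e-05). Ccl3, which binds Ccr1, measured 2.71, 3.71, 2.94 and 2.16 CPM in Ctrl, 10.3, 9.62, 14.5 and 17.9 CPM in Model and 23.2, 38.6, 9.60 and 10.2 CPM in YHY. Again the Ctrl and Model mice did not overlap (4.55-fold, log2 fold change 2.18, SE 0.39, adjusted P = 0.000417), and YHY 1 and YHY 2 were the highest of all.

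Ccl9, a Ccr1 ligand found in rodents, stood at 4.85, 7.18, 4.19 and 3.94 CPM in Ctrl, 14.8, 13.1, 22.8 and 19.5 CPM in Model and 28.9, 35.9, 13.6 and 14.2 CPM in YHY. Its neighbour Ccl6, another Ccr1 ligand, stood at 2.23, 1.50, 1.32 and 1.75 CPM in Ctrl, 3.99, 6.86, 8.77 and 7.27 CPM in Model and 3.97, 2.49, 2.12 and 1.74 CPM in YHY. Both were higher in all 4 Model mice than in any Ctrl mouse, Ccl9 by 3.49-fold (log2 fold change 1.80, SE 0.31, adjusted P = 0.000344) and Ccl6 by 3.93-fold (log2 fold change 1.98, SE 0.32, adjusted P = 0.000245). The pair parted in YHY mice, where all 4 mice were below every Model mouse for Ccl6 while YHY 1 and 2 were above every Model mouse for Ccl9.

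Ccl2, the main attractant of Ccr2-bearing monocytes, measured 4.25, 2.43, 2.64 and 2.48 CPM in Ctrl, 7.79, 6.43, 8.27 and 9.66 CPM in Model and 16.5, 21.8, 8.30 and 6.01 CPM in YHY. Ccl7, which also binds Ccr2, measured 0.793, 0.687, 0.490 and 0.911 CPM in Ctrl, 2.77, 2.57, 2.10 and 3.16 CPM in Model and 3.36, 6.08, 2.01 and 2.48 CPM in YHY. Ctrl and Model mice did not overlap for either gene. The rise in Model was 2.72-fold for Ccl2 (log2 fold change 1.44, SE 0.34, adjusted P = 0.00366) and 3.66-fold for Ccl7 (log2 fold change 1.87, SE 0.38, adjusted P = 0.00116). Ctrl 1 was set apart from the other Ctrl mice by its higher Ccl2.

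Ccl27a, an epithelial ligand of Ccr10, stood at 9.94, 13.4, 12.5 and 10.1 CPM in Ctrl, 17.4, 21.1, 21.2 and 20.7 CPM in Model and 15.3, 23.7, 23.8 and 19.3 CPM in YHY. The groups Ctrl and Model did not overlap, and the difference was the smallest of the 10 genes called higher (1.75-fold, log2 fold change 0.81, SE 0.17, adjusted P = 0.00149). With scaling by library size alone its log2 fold change was 0.38 and no longer passed the test (adjusted P = 0.109, against 0.000119 to 0.109 over all alternatives tried).

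Cxcl2, a neutrophil attractant acting through Cxcr2, measured 4.51, 6.12, 3.89 and 2.60 CPM in Ctrl, 15.7, 12.9, 20.2 and 18.7 CPM in Model and 30.1, 50.0, 13.5 and 13.3 CPM in YHY. All Model mice were above all Ctrl mice (3.96-fold, log2 fold change 1.99, SE 0.38, adjusted P = 0.000717). Cxcl1, which shares that receptor, measured 0.961, 0.499, 0.612 and 0.956 CPM in Ctrl, 0.612, 3.57, 2.79 and 5.34 CPM in Model and 3.32, 3.21, 1.53 and 2.52 CPM in YHY. Model 1 lay within the range of the Ctrl mice while the other 3 Model mice were above it, and the fitted difference was 4.01-fold (log2 fold change 2.00, SE 0.51, adjusted P = 0.00583). Cxcl13, which draws B cells through Cxcr5, was at 0.192, 0.374, 0.465 and 0.250 CPM in Ctrl, 3.06, 1.14, 0.776 and 1.67 CPM in Model and 4.01, 0.995, 5.47 and 1.08 CPM in YHY. The Ctrl and Model mice did not overlap (5.19-fold, log2 fold change 2.38, SE 0.62, adjusted P = 0.00631), with a spread among db/db mice that was wide beside their means.

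**Figure D3:**
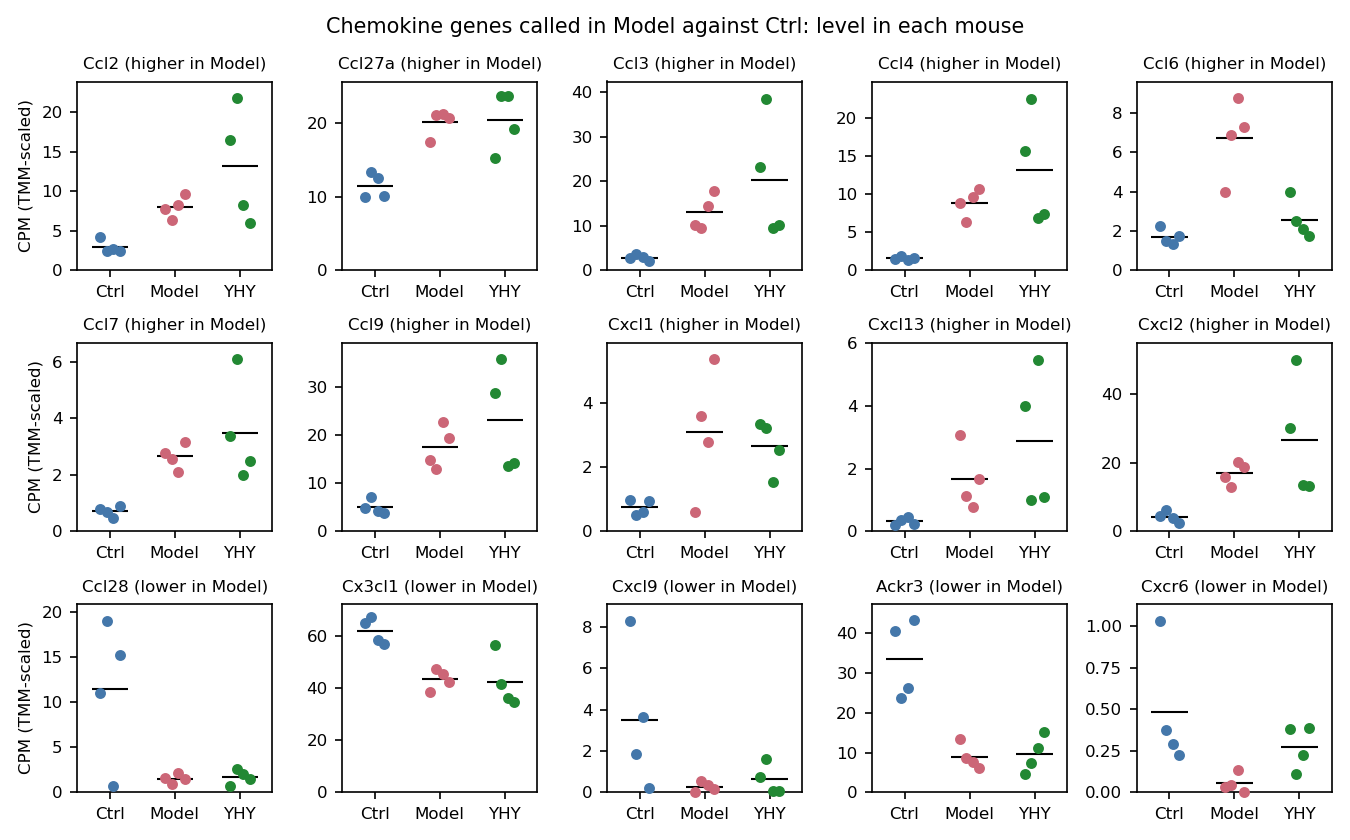
Level (CPM, TMM-scaled) in each mouse of the 15 genes called between Model and Ctrl (adjusted P under 0.05), with points for the 4 mice of each group and a line at the group mean. The 10 panels titled as higher show all Ctrl mice below the Model mice apart from Model 1 for Cxcl1, the 5 titled as lower show them above the Model mice apart from Ctrl 3 for Ccl28 and Ctrl 4 for Cxcl9, and in the Ccl6 panel the YHY mice lie below the Model mice. These 15 genes were chosen by their adjusted P, and Ctrl and Model mice did not overlap for 7013 of all 17431 genes tested.

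Because 10 ligands rose together, the sequence before their starts was searched for short motifs. Promoter windows of 300 bases, from 250 before to 50 after the start, were found for 47 of the 62 genes in RefSeq (GRCm38.p6), among them 7 of the 10 ligands that rose and all 5 genes that fell. Ccl4, Ccl2 and Ccl7 had no window. The NF-kB consensus of 10 letters occurred on either strand in 3 of the 7 (Cxcl2, Cxcl1 and Ccl9), in 0 of the 5, in 10 of the 47, and in 8.46% of all 32851 windows. The windows of these 3 and of the chromosome 11 ligands Ccl3 and Ccl6, which hold no match, are shown 5′ to 3′ on the strand of the gene, with matches to this consensus in capitals. They are Cxcl2 at chr5:90903649-90903948 on the + strand, Cxcl1 at chr5:90890995-90891294 on the + strand, and on the - strand Ccl9 at chr11:83578587-83578886, Ccl3 at chr11:83649329-83649628 and Ccl6 at chr11:83593038-83593337.
Cxcl2: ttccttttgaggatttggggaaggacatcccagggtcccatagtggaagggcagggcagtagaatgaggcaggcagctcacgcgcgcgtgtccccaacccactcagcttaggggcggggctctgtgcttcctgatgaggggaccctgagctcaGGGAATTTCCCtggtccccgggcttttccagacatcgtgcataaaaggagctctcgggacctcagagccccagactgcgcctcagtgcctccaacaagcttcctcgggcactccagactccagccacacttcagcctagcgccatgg
Cxcl1: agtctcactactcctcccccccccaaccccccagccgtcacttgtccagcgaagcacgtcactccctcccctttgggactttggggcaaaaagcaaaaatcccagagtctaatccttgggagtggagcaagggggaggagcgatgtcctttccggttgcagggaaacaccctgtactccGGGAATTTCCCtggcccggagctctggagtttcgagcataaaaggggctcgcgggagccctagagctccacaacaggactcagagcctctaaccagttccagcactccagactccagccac
Ccl9: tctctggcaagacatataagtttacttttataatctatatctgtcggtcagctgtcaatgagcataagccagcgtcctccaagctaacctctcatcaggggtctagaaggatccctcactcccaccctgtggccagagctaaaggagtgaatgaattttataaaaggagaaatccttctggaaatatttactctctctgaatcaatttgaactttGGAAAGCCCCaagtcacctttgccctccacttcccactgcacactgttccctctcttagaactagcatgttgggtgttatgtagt
Ccl3: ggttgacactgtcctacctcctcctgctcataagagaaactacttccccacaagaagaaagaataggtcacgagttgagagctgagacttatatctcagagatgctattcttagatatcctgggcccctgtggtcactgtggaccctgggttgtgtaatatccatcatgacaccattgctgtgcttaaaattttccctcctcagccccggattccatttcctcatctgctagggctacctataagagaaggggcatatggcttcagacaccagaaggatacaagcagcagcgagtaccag
Ccl6: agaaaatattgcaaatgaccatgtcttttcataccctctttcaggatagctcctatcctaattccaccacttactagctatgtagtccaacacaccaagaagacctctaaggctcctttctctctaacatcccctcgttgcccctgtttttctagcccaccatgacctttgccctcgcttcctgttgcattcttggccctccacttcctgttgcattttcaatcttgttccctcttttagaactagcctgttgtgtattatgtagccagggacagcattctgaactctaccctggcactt

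In the Cxcl2 window the match begins 97 bases before the start and in the Cxcl1 window 71 bases before it, and both also match on the other strand, 1 base further on. The single match of Ccl9 is on the other strand and begins 35 bases before the start. The longest run of bases shared by the Cxcl2 and Cxcl1 windows was 20, and that shared by Ccl9 and Ccl6 was 13, against 7 to 10 for the other pairs of these 5. GGGNNTTCC, an NF-kB form of 9 letters that can overlap the consensus, occurred in Ccl9 and Cxcl9 of these 12 windows and in 5.82% of all windows. The AP-1 motif TGANTCA was in Ccl9 and, of the genes that fell, in Ccl28 and Cxcl9 (7.81% of all). TTCNNNGAA, a STAT motif, and the consensus of the interferon-stimulated response element were in 0 of the 12 windows and in 8.30% and 0.170% of all. TGACGT, the core of the CREB motif, was in Cxcl1 alone of the 12 (7.51% of all), and CCGCCC, an Sp1 motif, was in 2 of 7, 3 of 5 and 35.7% of all. These motifs were chosen after matches of related NF-kB, STAT and interferon forms in the same windows had been seen, and a match describes letters and not a site in use.

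Among the ligands that fell, Cx3cl1 is made as a membrane-bound protein by endothelium and tubule epithelium and holds cells that bear Cx3cr1. It measured 65.0, 67.6, 58.7 and 57.1 CPM in Ctrl, 38.8, 47.5, 45.7 and 42.6 CPM in Model and 56.8, 41.5, 36.3 and 34.9 CPM in YHY. Every Model mouse stood below every Ctrl mouse, by a modest margin (1.42-fold lower, log2 fold change -0.51, SE 0.16, adjusted P = 0.0176). Cx3cr1 itself measured 5.98, 4.21, 5.24 and 5.85 CPM in Ctrl and 4.38, 3.72, 3.75 and 3.12 CPM in Model, and it missed the threshold with overlapping groups (log2 fold change -0.51, SE 0.22, adjusted P = 0.0798). It passed with DESeq2 (adjusted P = 0.0440), with library size alone (0.0102), without Model 1 (0.0398), without Model 1 and YHY 2 (0.0348) and with the 9 mice behind the authors' averages (0.0249), in a range of 0.0102 to 0.199 over all alternatives tried.

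Ccl28, an epithelial ligand of Ccr10 and Ccr3, measured 11.02, 19.0, 0.735 and 15.2 CPM in Ctrl, 1.58, 0.953, 2.10 and 1.54 CPM in Model and 0.725, 2.54, 2.01 and 1.43 CPM in YHY. Ctrl 3 was lower than every Model mouse while the other 3 Ctrl mice were far above them, so the groups overlapped although the fall passed the test (log2 fold change -2.89, SE 0.65, adjusted P = 0.00243). Without Ctrl 3 the log2 fold change was -3.33 (adjusted P = 4.13e-05, against 3.87e-07 to 0.0183 over all alternatives). Cxcl9, an interferon gamma-induced ligand of Cxcr3 on T cells, measured 8.29, 1.84, 3.62 and 0.228 CPM in Ctrl, 0, 0.572, 0.365 and 0.171 CPM in Model and 0.763, 1.60, 0.0744 and 0.0775 CPM in YHY. The Ctrl mice differed widely among themselves and Ctrl 4 lay within the Model range (log2 fold change -3.70, SE 1.10, adjusted P = 0.0143), and without Ctrl 1 the call was lost (log2 fold change -2.87, adjusted P = 0.0655, the highest of the alternatives, which began at 9.25e-05).

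The most abundant ligand did not pass the test. Cxcl12, which holds Cxcr4-bearing cells in tissues, measured 146, 144, 181 and 127 CPM in Ctrl, 116, 138, 122 and 126 CPM in Model and 191, 136, 112 and 80.2 CPM in YHY. The groups overlapped (log2 fold change -0.25, SE 0.21, adjusted P = 0.368, 95% interval -0.70 to 0.20), and with library size alone a log2 fold change of -0.69 passed (adjusted P = 0.0363, the others reaching 0.551). Ccl21a, Cxcl16 and Cxcl14 also overlapped between Ctrl and Model. Their means in Ctrl and Model were 5.48 ± 2.26 and 7.83 ± 2.59 CPM for the lymphatic ligand Ccl21a (log2 fold change 0.52, adjusted P = 0.205), 20.9 ± 4.88 and 18.3 ± 2.98 CPM for Cxcl16 (log2 fold change -0.20, adjusted P = 0.587), and 11.1 ± 3.76 and 10.1 ± 1.05 CPM for Cxcl14 (log2 fold change -0.13, adjusted P = 0.732; mean ± SD, n = 4). Over the 19 tested genes that were not called, log2 fold changes ran from -1.26 to 1.54.

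The receptors were low. By edgeR 0 of 8 tested were higher in Model, against 19.6% of all genes, also at an unadjusted P under 0.05 and by DESeq2. With so few genes 0 is not far from that share, and the other receptors had too few counts to be tested. With no filter on low counts 19 members and 6500 genes of the whole table were called, against 15 members and 6631 genes as reported. Among the 19 were 4 further members. The receptor Ccr4 was higher (adjusted P = 0.0161), with 0 counts in each Ctrl mouse and 0, 10, 2 and 5 in Model. The ligands Ccl22 (adjusted P = 0.0113), Ccl11 (0.0195) and Cxcl5 (0.0381) were lower, each at 0 counts in all Model mice, against 20, 8, 6 and 14 counts in Ctrl for Ccl22 and 34, 0, 4 and 0 for Cxcl5. Cxcr6, which sits on T and NKT cells and binds Cxcl16, had 43, 12, 12 and 10 counts in Ctrl, 1, 1, 3 and 0 counts in Model and 10, 2, 6 and 10 counts in YHY. All Ctrl mice were above all Model mice, and it was the receptor called lower (adjusted P = 0.0123). Cxcr6 passed the filter on low counts through Ctrl and YHY mice and through no Model mouse. Cxcr6 was thus tested because of the groups where it was higher, which limits the call. It had too few counts to be tested in 7 of the 18 alternatives, among them those without Ctrl 1 or without Ctrl 2, and passed in the other 11. The 77 counts of Ctrl against 5 of Model give a ratio of 9.46 per scaled count, with an exact 95% counting interval of 3.88 to 30.0 that leaves out the spread between mice. This interval and those below are too narrow if the counts stand for fewer fragments. Ctrl 1 held 43 of the 77, and the ratio was 5.67 (2.205 to 18.6) without it and 18.3 (4.91 to 154) without Model 3.

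Among the receptors of the ligands that rose, Ccr2, Ccr1 and Cxcr2 gave no call. Ccr2, the receptor of Ccl2 and Ccl7 on monocytes, measured 3.55, 2.47, 1.96 and 1.21 CPM in Ctrl, 1.93, 1.57, 0.183 and 0.385 CPM in Model and 0.153, 2.10, 0.856 and 3.22 CPM in YHY (log2 fold change -1.16, adjusted P = 0.228). Ccr1, bound by Ccl3, Ccl6, Ccl7 and Ccl9, measured 1.01, 0.811, 0.441 and 2.19 CPM in Ctrl, 0.773, 0.524, 0.365 and 0.171 CPM in Model and 0.420, 0.608, 0.298 and 0.310 CPM in YHY (log2 fold change -1.26, adjusted P = 0.108). With library size alone Ccr1 passed (log2 fold change -1.71, adjusted P = 0.0350, the others reaching 0.409). Cxcr2, the receptor of Cxcl1 and Cxcl2, had 12, 12, 2 and 19 counts in Ctrl, 16, 2, 2 and 0 in Model and 16, 5, 6 and 0 in YHY (log2 fold change -0.62, adjusted P = 0.670). Without Model 1 and YHY 2 the log2 fold change of Cxcr2 was -2.21 (adjusted P = 0.185). For all 3 of these receptors Ctrl and Model mice overlapped.

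Receptors below the limit of testing are given as counts. Cxcr3, the receptor of Cxcl9, had 35, 6, 14 and 4 counts in Ctrl, 0, 2, 2 and 2 in Model and 2, 18, 2 and 6 in YHY. Cxcr5, the receptor of Cxcl13, had 14, 5, 8 and 18 counts in Ctrl, 0, 0, 2 and 5 in Model and 0, 0, 2 and 0 in YHY. Ctrl 1 and YHY 2 had the most Cxcr3, and Cxcr5 was found in all 4 Ctrl mice and in 3 of the 8 db/db mice. Ccr10, the receptor of Ccl27a and Ccl28, had 8, 5, 10 and 6 counts in Ctrl, 0, 0, 15 and 0 in Model and 0, 0, 8 and 0 in YHY, and Ccr3 had at most 3 counts in a mouse, so neither could be compared at this depth.

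Of the 2 atypical receptors that were tested, Ackr3 changed more, while Ackr1 and Ackr4 had too few counts to be tested. Ackr3, which takes up Cxcl12 and Cxcl11, measured 40.4, 23.8, 26.2 and 43.2 CPM in Ctrl, 13.5, 8.72, 7.72 and 6.07 CPM in Model and 4.50, 7.30, 11.2 and 15.1 CPM in YHY. All Ctrl mice stood above all db/db mice, and the level was 3.70-fold lower in Model (log2 fold change -1.89, SE 0.33, adjusted P = 0.000389). Its ligand Cxcl11 measured 0.432, 0.437, 0.245 and 0.569 CPM in Ctrl and 0.322, 0.524, 0.502 and 0.299 CPM in Model (log2 fold change -0.04, adjusted P = 0.972). Ackr2, which degrades inflammatory CC ligands, measured 0.336, 0.250, 0.637 and 0.637 CPM in Ctrl, 1.42, 1.24, 0.639 and 1.15 CPM in Model and 0.458, 0.332, 1.00 and 1.16 CPM in YHY. Model mice lay above Ctrl mice, Model 3 by 0.002 CPM, but the difference missed the threshold (log2 fold change 1.25, SE 0.54, adjusted P = 0.0777). It passed with DESeq2 (adjusted P = 0.0459) and in a fit of the 8 mice alone (0.0478), in a range of 0.0459 to 0.307 over all alternatives tried. Ackr1, the chemokine receptor of red cells and venules, had at most 3 counts in a mouse.

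With YHY the question was whether treated db/db mice differ from untreated ones. Ccl6 was the only one of the 34 tested genes to pass in YHY against Model (2.94%), against 13.3% of all genes tested. It was lower in YHY, against 7.62% of all genes, and 0 of the 34 were higher by edgeR or DESeq2, against 5.63% of all genes. At an unadjusted P under 0.05 with a fold change over 1.2, 3 of the 34 were called, against 28.6% of all genes, namely Ccl6, Ccl2 and Cxcr6. The median log2 fold change of the 34 genes was 0.15, beside 0.02 over all genes. Model and YHY mice did not overlap for 1 of the 34 genes and for 2807 of all 17431 genes tested. The comparison shares its 4 Model mice with the previous one.

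For Ccl6 all YHY mice lay below all Model mice, although YHY 1 at 3.97 CPM and Model 1 at 3.99 CPM nearly met. The mean was 6.72 ± 2.00 CPM in Model and 2.58 ± 0.974 CPM in YHY (mean ± SD, n = 4), 2.60-fold lower (log2 fold change -1.38, SE 0.32, adjusted P = 0.0119), beside 1.70 ± 0.396 CPM in Ctrl. The call held in each of the 18 alternatives tried, with adjusted P from 0.000712 to 0.0480.

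The other ligands that rose in Model were not lower in YHY by this test. YHY 1 and YHY 2 were higher than all Model mice for Ccl2, Ccl3, Ccl4, Ccl9, Ccl7 and Cxcl2, while YHY 3 and YHY 4 lay within or below the Model range for each. Ccl2 was 1.63-fold higher (log2 fold change 0.71, SE 0.33, adjusted P = 0.174) and passed when YHY 4 was left out (log2 fold change 0.94, adjusted P = 0.0389, the other alternatives reaching 0.590). Values for the others were log2 fold change 0.64, adjusted P = 0.265 for Ccl3, log2 fold change 0.56, adjusted P = 0.266 for Ccl4, and log2 fold change 0.66, adjusted P = 0.242 for Cxcl2. They were 0.40 (adjusted P = 0.409) for Ccl9, 0.38 (0.524) for Ccl7, 0.79 (0.379) for Cxcl13 and 0.03 (0.941) for Ccl27a. Cxcl1 went the other way (log2 fold change -0.22, adjusted P = 0.821). Without Model 1 and YHY 2, the log2 fold changes of Ccl2, Ccl3 and Cxcl2 were 0.36, 0.05 and 0.15, and those of Cxcl13 and Cxcl1 were 1.58 and -0.66. The 95% intervals with all mice were -0.13 to 1.41 for Ccl3 and -0.10 to 1.42 for Cxcl2, so neither a rise nor a small fall could be told from no difference.

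The genes that were lower in Model gave no call with YHY by edgeR or DESeq2, and Cxcr6 alone of them had an unadjusted P under 0.05. Ackr3 (log2 fold change 0.08, adjusted P = 0.910), Ccl28 (log2 fold change 0.10, adjusted P = 0.943), Cx3cl1 (log2 fold change -0.04, adjusted P = 0.900) and Cxcl9 (log2 fold change 1.18, adjusted P = 0.528) all overlapped between Model and YHY. Without Model 1 and YHY 2 the log2 fold changes in this order were 0.46, -0.13, -0.06 and -0.23, so those of Ccl28 and Cxcl9 turned. Cxcr6 had 10, 2, 6 and 10 counts in YHY against 1, 1, 3 and 0 in Model (log2 fold change 2.32, adjusted P = 0.106), with YHY 2 overlapping Model 3.

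Chemokines come from many cells, and in whole tissue fewer cells of a type and less RNA per cell cannot be told apart. The 3 pan-leukocyte markers summed to 28.4, 18.1, 25.3 and 21.2 CPM in Ctrl, 25.6, 24.8, 27.8 and 35.1 CPM in Model and 41.1, 57.6, 23.8 and 26.5 CPM in YHY, Coro1a being the most abundant. The 14 macrophage markers summed to 279, 199.7, 282 and 233 CPM in Ctrl, 258, 276, 319.6 and 384 CPM in Model and 429, 634, 295 and 259 CPM in YHY, with Lyz2 the most abundant. YHY 1 and YHY 2, the mice with the highest Ccl3, Ccl4, Cxcl2 and Ccl9, also had the highest sums of both lists. Without Lyz2 the other 13 macrophage markers summed to 177, 134, 179 and 155 CPM in Ctrl, 138, 162, 160.4 and 199 CPM in Model and 197, 272, 181 and 141 CPM in YHY, where YHY 2 was still the highest and YHY 1 lay just below Model 4.

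The macrophage list did not move as one in Model against Ctrl. Cd14 (log2 fold change 1.45, adjusted P = 0.000757) and the lysosomal marker Cd68 (log2 fold change 1.05, adjusted P = 0.00730) rose, while the complement genes C1qa, C1qb and C1qc fell (log2 fold change -1.62, adjusted P = 0.000441 for C1qc), so 2 of 14 were higher and 3 lower (35.7%, against 38.0% of all genes). In YHY against Model Mertk rose (log2 fold change 0.64, adjusted P = 0.0397) and 0 of 14 fell by edgeR, DESeq2 or an unadjusted P under 0.05. The share called by edgeR was 7.14%, against 13.3% of all genes, of which 5.63% were higher and 7.62% lower. Of the 3 pan-leukocyte markers 0 passed in either comparison by edgeR or DESeq2, with 1 at an unadjusted P under 0.05 (higher in YHY). What part leukocyte content had in the chemokine levels was not tested.

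The 9 T cell markers summed to 9.15, 2.71, 5.39 and 3.78 CPM in Ctrl, 4.06, 2.57, 2.47 and 4.15 CPM in Model and 3.09, 3.65, 6.92 and 1.90 CPM in YHY, led by Trac. The 6 NK cell markers, led by Nkg7, summed to 2.19, 0.749, 1.15 and 0.706 CPM in Ctrl, 0.901, 0, 0.0913 and 0.342 CPM in Model and 0.114, 0, 0.707 and 0.465 CPM in YHY. Ctrl 1, the mouse with the highest Cxcl9 and Cxcr6, had the highest sums of both lists, and 0 of the 6 tested T cell markers and of the 1 tested NK cell marker passed by edgeR in either comparison. For these lists and those that follow, 38.0% of all genes were called by edgeR in Model against Ctrl and 13.3% with YHY. At an unadjusted P under 0.05 these shares were 46.9% and 28.6%. Over all genes DESeq2 called 7253 in Model against Ctrl and 3122 with YHY, beside 6631 and 2311 by edgeR. In Model against Ctrl 1 T cell marker was lower by DESeq2 and at an unadjusted P under 0.05, and with YHY 1 was higher at an unadjusted P under 0.05. Neutrophil markers summed to 7.32, 4.21, 2.87 and 17.0 CPM in Ctrl, 9.11, 6.05, 5.07 and 9.45 CPM in Model and 12.6, 10.3, 2.61 and 2.52 CPM in YHY, with S100a8 the most abundant, Mpo at 0 in all mice and no call among the 3 tested by edgeR, DESeq2 or an unadjusted P under 0.05. The 5 B cell markers, led by Cd79b, summed to 2.33, 1.69, 2.16 and 1.68 CPM in Ctrl, 1.06, 1.29, 1.37 and 1.07 CPM in Model and 4.81, 1.22, 1.49 and 0.697 CPM in YHY, with 0 of 2 tested passing by any of these.

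Of the 2 plasma cell markers, Jchain fell in Model (log2 fold change -2.15, adjusted P = 0.0318) and was higher with YHY (log2 fold change 2.63, adjusted P = 0.0308), with overlapping groups in both. The 2 summed to 8.55, 7.96, 7.52 and 1.87 CPM in Ctrl, 0.998, 0.667, 2.15 and 3.93 CPM in Model and 7.14, 3.98, 25.7 and 2.40 CPM in YHY. Of the 5 dendritic cell markers, which together summed to 8.26, 7.02, 8.79 and 5.94 CPM in Ctrl, 9.95, 11.3, 16.3 and 13.1 CPM in Model and 10.3, 16.1, 13.7 and 16.7 CPM in YHY, 4 were tested and the most abundant, Zbtb46, rose in Model (log2 fold change 1.05, adjusted P = 0.00141). The other 4 summed to 2.45 ± 0.583, 2.18 ± 0.650 and 3.72 ± 0.793 CPM in Ctrl, Model and YHY (mean ± SD, n = 4), so the sum was higher in Model through Zbtb46 alone. With YHY 0 of the 4 tested dendritic cell markers passed by edgeR, and 1 was higher by DESeq2 and at an unadjusted P under 0.05. These marker levels stand beside the chemokine results, and their part in them was not tested.

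**Figure D4:**
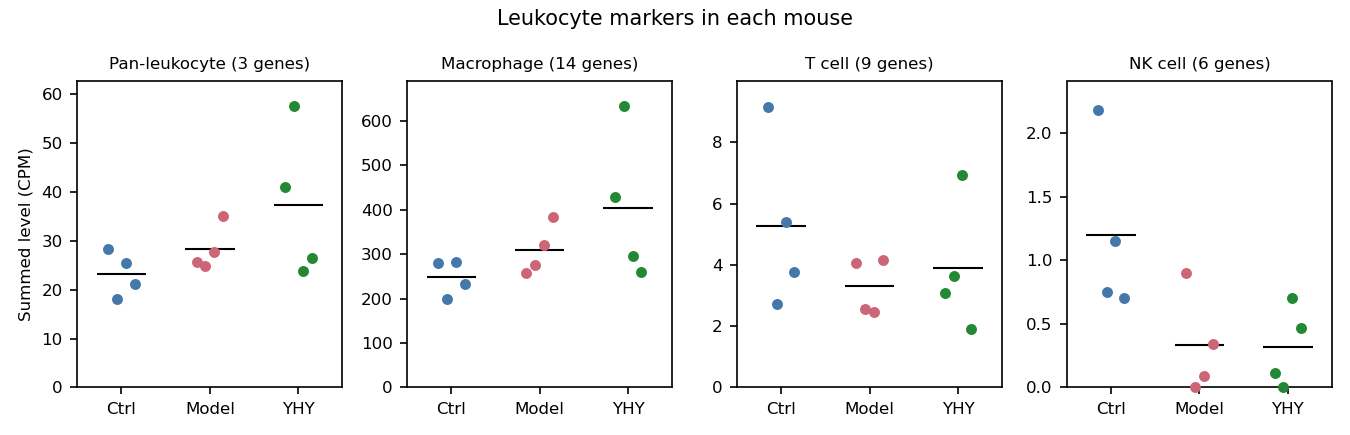
Summed level (CPM) of the pan-leukocyte, macrophage, T cell and NK cell markers in each of the 12 mice, with a line at each group mean (n = 4). YHY 1 and YHY 2 are the highest mice for the pan-leukocyte and macrophage markers, and Ctrl 1 is the highest for the T cell and NK cell markers.

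Of 40 markers of the cells that make up the kidney, in 6 lists, 15 were called in Model against Ctrl (37.5%), against 38.0% of all genes. By list, 4 of 9 proximal tubule markers and 3 of 4 collecting duct markers were lower, and 2 of 9 endothelial, 2 of 9 fibroblast and mural and 2 of 5 podocyte markers were higher by edgeR. In these 5 lists 0 passed in the opposite direction by edgeR or DESeq2, and 1 fibroblast and mural marker was lower at an unadjusted P under 0.05. Of the 4 markers of the loop of Henle and distal tubule, 1 was higher and 1 lower. Summed levels in Ctrl, Model and YHY were 437 ± 48.7, 589 ± 52.8 and 519 ± 92.4 CPM for endothelium, led by Eng, and 956 ± 408, 443 ± 111 and 392 ± 185 CPM for the collecting duct, led by Aqp2 (mean ± SD, n = 4). Eng alone made up 122 ± 7.82, 256 ± 16.7 and 181 ± 11.1 CPM, and the other 8 endothelial markers summed to 316 ± 56.5, 333 ± 50.0 and 338 ± 84.1 CPM, so the higher sum in Model was mostly that of Eng. Without Aqp2 the other 3 collecting duct markers summed to 306 ± 69.7, 157 ± 56.3 and 150.1 ± 23.3 CPM. The part of these cells in the changes of Cx3cl1, Ackr3 and Ccl28 was not tested. In YHY against Model, 4 of the 40 were called by edgeR (10.0%, against 13.3% of all genes), 1 each of endothelium, proximal tubule, distal tubule and collecting duct, all lower. DESeq2 called 4 proximal tubule, 2 endothelial, 1 distal tubule and 1 collecting duct marker lower and 1 distal tubule and 1 collecting duct marker higher. Over all genes DESeq2 called 3122 with YHY, beside 2311 by edgeR.

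Of 27 genes that induce chemokines or control NF-kB, 25 were tested, and in Model against Ctrl 6 were higher and 2 lower (32.0%, against 38.0% of all genes, median log2 fold change 0.04). Tnf, the cytokine that switches on many of these ligands, rose from 1.17 ± 0.560 to 5.40 ± 1.21 CPM (log2 fold change 2.22, adjusted P = 0.00103), and Nfkbiz, a nuclear co-regulator of NF-kB, from 5.76 ± 1.51 to 11.9 ± 1.67 CPM (log2 fold change 1.05, adjusted P = 0.000772). Bcl3 (log2 fold change -0.99, adjusted P = 0.0324) and the kinase gene Ikbkb (log2 fold change -0.38, adjusted P = 0.0447) fell. With YHY 2 were higher (8.00%, against 5.63% of all genes) and 0 lower by edgeR, 3 and 0 by DESeq2, and 7 and 0 at an unadjusted P under 0.05 (28.0% higher, against 13.9% of all genes). Those called were Nfkbiz (2.18-fold, adjusted P = 0.00267) and Ikbkb (log2 fold change 0.69, adjusted P = 0.00582), with a median of 0.26.

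The interferon gamma route that drives Cxcl9 and Cxcl10 had 0 of 9 tested genes higher by edgeR, DESeq2 or an unadjusted P under 0.05, and 3 lower by edgeR in Model (33.3%, against 38.0% of all genes called in either direction, median -0.36). The effector Gbp2 fell from 7.95 ± 6.17 to 0.825 ± 0.458 CPM (log2 fold change -3.24, adjusted P = 0.000347) and the kinase gene Jak1 was also lower (log2 fold change -0.80, adjusted P = 0.000883). With YHY 0 of 9 passed by edgeR, against 13.3% of all genes, and 0 by DESeq2. At an unadjusted P under 0.05, 1 was higher and 2 were lower, against 13.9% and 14.7% of all genes (median 0.30).

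Of 29 genes that act below the receptors, 6 were higher and 5 lower in Model (37.9%, against 38.0% of all genes, median 0.10, and 0.06 with YHY). The receptor kinase gene Grk3 (log2 fold change 0.92, adjusted P = 0.00109) and Rgs1, which shortens G protein signals in leukocytes (log2 fold change 2.02, adjusted P = 0.00345), had the smallest adjusted P of the higher, and Rac1 (log2 fold change -1.18, adjusted P = 1.37e-05) and the G protein gene Gnai1 (log2 fold change -1.06, adjusted P = 0.000125) that of the lower. With YHY 3 of 29 were called (10.3%, against 13.3% of all genes), of which Elmo1 (log2 fold change 1.17, adjusted P = 0.0312) and Plcb3 (log2 fold change 0.49, adjusted P = 0.0402) were higher and Gnai1 was lower (log2 fold change -0.55, adjusted P = 0.0342). For adhesion and passage of leukocytes, 16 of the 19 genes were tested and 1 was higher, the integrin gene Itgb2 (log2 fold change 0.81, adjusted P = 0.0213), and 3 were lower, with Icam1 (log2 fold change -0.57, adjusted P = 0.0114) and F11r (log2 fold change -0.58, adjusted P = 0.0132) at the smallest adjusted P. With YHY 0 of 16 passed by edgeR, against 13.3% of all genes. By DESeq2 2 were higher, and 3 were at an unadjusted P under 0.05, against 13.9% of all genes. The share called between Model and Ctrl was 25.0%, against 38.0% of all genes, and the medians of these 16 were -0.22 in Model and 0.16 with YHY.

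Of the 18 tested genes that cleave or present chemokines, 3 were higher and 5 lower in Model (44.4%, against 38.0% of all genes, median 0.06, and -0.23 with YHY). The proteoglycan gene Sdc4 rose from 262 ± 16.6 to 427 ± 46.4 CPM (log2 fold change 0.70, adjusted P = 0.00360) and was lower with YHY at 273 ± 52.3 CPM (log2 fold change -0.64, adjusted P = 0.0195). Sdc2 (log2 fold change -1.08, adjusted P = 0.000961) and Adam10, whose protease sheds Cx3cl1 and Cxcl16 (log2 fold change -0.69, adjusted P = 0.00310), fell in Model. Ext1, which builds heparan sulfate chains, rose in Model (log2 fold change 0.54, adjusted P = 0.00678). With YHY 22.2% were called, against 13.3% of all genes, and 1 was higher, Hs6st1 (log2 fold change 0.66, adjusted P = 0.0408), and 3 were lower, of which Sdc4 and Ext2 (log2 fold change -0.43, adjusted P = 0.0306) had the smallest adjusted P. Of 9 relatives outside the naming rule (22.2% called in Model, against 38.0% of all genes, medians -0.22 and 0.29), Gpr182, an atypical chemokine receptor of endothelium, rose in Model (log2 fold change 1.06, adjusted P = 0.00300) and Cd74, a receptor of Mif, fell (log2 fold change -1.21, adjusted P = 0.00136). With YHY 0 of the 9 passed by edgeR, against 13.3% of all genes, and 0 by DESeq2. At an unadjusted P under 0.05, 1 was higher, against 13.9% of all genes.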

How the data were processed

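Kidney mRNA of 12 mice was sequenced, 4 each of Ctrl, Model and YHY, and the raw gene counts were used as deposited. According to the submitters' processing notes, the authors checked reads with FastQC 0.11.9, trimmed them with Trimmomatic 0.39, aligned them to GRCm39 with HISAT2 2.2.1 and SAMtools 1.12, counted them with featureCounts 2.0.1 and analysed the counts with DESeq2 1.34.0 in R 4.1.2. The annotation release and strand setting are not given in the sources used here. The signal values that the authors deposited as group means were used only to find which 9 mice they cover, which were Ctrl 1, 3 and 4, Model 2, 3 and 4 and YHY 1, 2 and 3. The authors' 12 per-mouse columns, fold changes, p-values and pathway tables were not used.

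Genes were filtered with filterByExpr and fitted together for the 3 groups with the edgeR 4.0.16 quasi-likelihood model (TMM scaling, no covariates) in R 4.3.3, and P was adjusted by Benjamini-Hochberg across the 17431 genes that passed the filter. DESeq2 1.42.0 was the other tool. Also used were limma 3.58.1, the package data.table (1.17.8), Python 3.11.15, numpy 2.4.6 and matplotlib 3.10.9, and the code was tested on simulated data. Libraries differed beyond counting error within each group (chi-square per degree of freedom 18.6 to 149.7). Intervals on counts cover counting error only, and not all of it where a count stands for fewer fragments.

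Genes described singly were those called, the 10 highest per kb and the partners of those called, and, from other gene lists, the 2 with the smallest adjusted P in each direction that passed. Results for 2 genes are not reported here. The members and lists were chosen with earlier results of these data known.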

Additional observations from a re-analysis of the deposited data

Results flagged for a closer look

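Of 153 groups of 4 mice that were examined for a mouse lying apart from the other 3 by Dixon's ratio, 9 held one, where chance gives about 1 in 20. Of the 78 groups of levels of single chemokine genes, 4 did.

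Ccl27a was low in Model 1 at 17.4152 CPM, with Model 2, 3 and 4 between 20.7 and 21.2 CPM, and Ccl2 was high in Ctrl 1 at 4.25074 CPM, with the rest of its group between 2.43 and 2.64 CPM. Cxcl16 was low in Model 2 at 13.8139 CPM (others 19.5 to 19.9) and Cxcl14 was low in YHY 4 at 6.50925 CPM (others 12.3 to 13.4). The summed level of the genes that act below the receptors was high in Ctrl 4 at 983.932 CPM (others 917 to 924), and that of the plasma cell markers was low in Ctrl 4 at 1.86687 CPM (others 7.52 to 8.55). The library of Ctrl 2 was the smallest of its group at 29632718 counts (others 32677732 to 33276634), and its share of mitochondrial transcripts was the highest at 22.7144% (others 18.4% to 18.6%). The share in YHY 2 was the highest of its group at 64.601% (others 53.8% to 54.6%). The causes were not tested.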

How the results depend on the processing

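No fold change of a named gene that was called in either the reported fit or an alternative changed sign between them. In Model against Ctrl, the members that were lower numbered 5 as reported, 8 with scaling by library size alone, 8 with no filter and 3 with at least 10 counts in every sample. Genes of the whole table called in either direction numbered 6631, 7214, 6500 and 5995 in these fits. Library size alone also moved the median log2 fold change of all genes to -0.39. Leaving out 1 mouse at a time gave 3 to 6 lower (3 without Ctrl 1), 10 to 10 higher and 13 to 16 called, and 5292 to 6927 genes over the whole table. In YHY against Model, all genes called numbered 2311 as reported, 1177 with library size alone, 1385 in a fit of the 8 mice compared and 4988 under the study's limits, by which 3 members were called and 2 were higher. Leaving out 1 mouse at a time gave 1146 (without Model 3) to 2723 genes (without YHY 4), 1 to 2 members called and 0 to 1 higher (2 and 1 without YHY 4). With the replicate number as a block, 15 and 1 members and 6289 and 1920 genes were called. Deviations of mice that share a number correlated at -0.17 to 0.05, and whether such mice shared a batch was not tested. Alternatives chosen after seeing the data left out Model 1 and YHY 2, the db/db mice with the lowest and highest mitochondrial share (16 and 1 members, 1436 genes in YHY against Model), or halved all counts because low counts were mostly even (14 and 1 members). For single genes in Model against Ctrl, leaving out a mouse left 204 results on the same side of the threshold, brought 1 past it and took 1 back, and other settings did so for 234, 8 and 1. In YHY against Model these were 207, 1 and 0, and 238, 0 and 0. Of 93 group levels, 10 moved by more than the spread between mice with library size alone. The causes were not tested.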

Other observations

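In the Cxcl2 and Cxcl1 windows the same 11 letters of the NF-kB match were read on both strands. Ccl9 and Ccl6, neighbours on chromosome 11, both rose in Model, and with YHY Ccl6 alone was lower.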
